A study of Homo sapiens with 2 samples.

Results

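Inflammasomes are protein platforms that assemble in the cytosol when a sensor meets a microbial product or a sign of damage. The sensor recruits the adaptor ASC, encoded by PYCARD, and through it the protease caspase-1, which cuts the precursors of interleukin-1β and interleukin-18 (IL-18) into their active forms and opens gasdermin D, a protein that forms pores in the plasma membrane. Caspase-4 and caspase-5 bind bacterial lipopolysaccharide directly and also cut gasdermin D. The 10 genes described here are the sensors NLRP3, NLRC4, AIM2 and CARD8, the adaptor PYCARD, the caspases CASP1, CASP4 and CASP5, the decoy inhibitor CARD16 and the pore protein GSDMD. They were picked by gene symbol out of 19775 genes on the array, with the ratios of these same 2 arrays already known, so all values below are a description.

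The cells were KG1, a line from a human acute myeloid leukaemia that resembles blood cell progenitors. One group, siRNA-Tbet, received 1.98 µg of siRNA directed at T-bet by electroporation, and the other, siRNAc, 1.98 µg of a control siRNA. Both groups rested for 5 h and then received IL-18 at 10 ng/ml for 12 h, so that neither shows the state before IL-18, the cytokine that caspase-1 releases. Each group holds 1 Affymetrix array, so no difference below has a replicate check, no p-value was computed, and the number of arrays limits the precision.

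The deposited values are linear MAS5 signal intensities in arbitrary units, on which the trimmed mean was 1000.1 on both arrays. Signals below 146, the higher of the 2 array medians, were raised to that floor before ratios were taken, and a gene was measured when its probe set lay above the floor on at least 1 array. Technical noise was gauged from how far the log2 ratios of a gene's 2 brightest probe sets differed (SD of the difference over the square root of 2, in 10 bins of signal). It was 0.40 in the dimmest bin and 0.12 in the brightest, and it leaves out variation between cultures. The targeted gene TBX21, which encodes T-bet, read 1839 with siRNA-Tbet, against 3581 with siRNAc (log2 ratio -0.96). IFNG, the interferon-γ gene, had 31243 with siRNA-Tbet and 35136 with siRNAc (log2 ratio -0.17). All 8 markers fixed for KG1 were measured, CD34 among them with 17130 for siRNA-Tbet and 15839 for siRNAc, and the 8 summed to 113344 with siRNA-Tbet, against 100238 with siRNAc. Of 5 monocyte and macrophage markers only CSF1R was measured, the defining marker CD14 lay at 4.54 with siRNA-Tbet and 6.34 with siRNAc, and the 5 summed to 194 with siRNA-Tbet, against 317 with siRNAc. None of 3 epithelial markers was measured, and of the granulocyte, B cell and T cell markers 2 each were. The 3 T cell markers summed to 327 with siRNA-Tbet and 693 with siRNAc, but they did not move together. CD4 had 29.1 with siRNA-Tbet and 337 with siRNAc, and CD8A lay below the floor on both arrays. CD3E went the other way, with 250 with siRNA-Tbet and 211 with siRNAc. The part of such cells in the results below was not tested. In bulk RNA, fewer cells of a kind and less RNA per cell cannot be told apart.

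The caspase genes and their decoy had lower signals with siRNA-Tbet, and the adaptor, the pore protein and the measured NLR and DNA sensors did not. The 10 genes are read by 23 probe sets, of which 22 belong to 1 gene and 1 to both CARD16 and CASP1. Each gene was read by 1 probe set, the brightest, avoiding the suffix _x_at where the gene had another. Those chosen for CASP1, CASP4 and PYCARD end in _s_at, a suffix for probes shared between transcripts or genes. On this reading 9 of the 10 genes were measured and NLRC4 was not. Of those 9, 5 were lower and 4 were higher with siRNA-Tbet, beside 53.6% lower and 46.4% higher of all 12126 measured genes. CARD16 was the only one past 1.5-fold, on the lower side, where 2.88% of all measured genes lay. On the higher side 0 of the 9 did, beside 1.96% of all genes. At a smaller bound of 0.32 on the log2 scale CARD16 and CASP1 were past it on the lower side, beside 10.9% of all genes, and none on the higher side, beside 7.68%. The median log2 ratio of the 9 genes was -0.09, beside -0.02 over all measured genes.

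**Figure D1:**
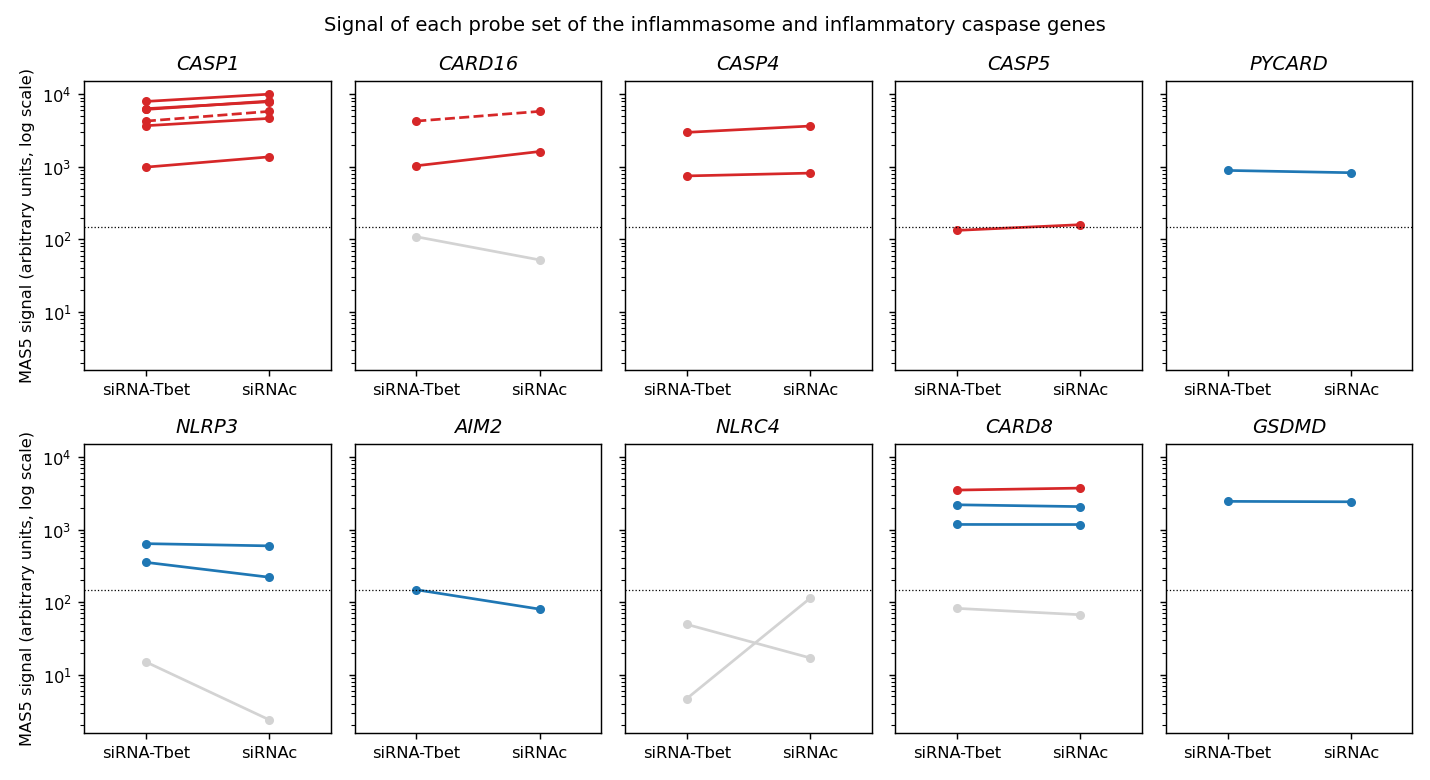
MAS5 signal of each probe set (vertical axis, arbitrary units, log scale) on the siRNA-Tbet and siRNAc arrays, in 1 panel per gene, each line 1 probe set. Red lines were lower and blue lines higher with siRNA-Tbet, grey lines lay below the floor (dotted, 146) on both arrays, and the dashed line is the probe set shared by CARD16 and CASP1. All measured lines of CASP1, CARD16 and CASP4 run lower on the siRNA-Tbet side, while those of NLRP3, PYCARD and GSDMD run level or higher.

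CASP1, the protease at the centre of the pathway, was lower at every one of its 5 probe sets. The probe set chosen for it read 6198 with siRNA-Tbet, against 8093 with siRNAc, so that 76.6% of the control signal was left (log2 ratio -0.38, 1.31-fold lower). The brightest had 7995 with siRNA-Tbet and 10069 with siRNAc, and the dimmest 993 with siRNA-Tbet and 1375 with siRNAc. The remaining probe sets had 6352 and 3699 with siRNA-Tbet, against 7919 and 4666 with siRNAc. The ratios were similar at bright and dim probe sets, with a mean log2 ratio of -0.37 ± 0.06 (SD, n = 5 probe sets) and a range from -0.47 to -0.32. They read the same 2 RNA samples, and some carry suffixes that mark probes shared between transcripts or genes, so they are not replicates of the treatment. The technical spread at the signal of the chosen probe set was 0.12. CASP1 lay at percentile 1.40 among 1212 genes of similar signal (1 of 10 equal groups of the measured genes), whose median log2 ratio was -0.01. Of 518 genes with at least 5 measured probe sets, 35 (6.76%) were lower at all of them. These 518 include genes with more than 5, so the share is not that of genes with exactly 5.

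CARD16 encodes little more than a caspase recruitment domain, nearly a copy of that of caspase-1, and can bind caspase-1 and hold it back. It read 1037 with siRNA-Tbet, against 1631 with siRNAc, which left 63.6% of the control signal (log2 ratio -0.65, 1.57-fold lower). This was the lowest ratio of the 9 measured genes, at percentile 0.825 among genes of similar signal, where the technical spread was 0.22. A second probe set of CARD16 lay below the floor on both arrays, at 109 with siRNA-Tbet and 52.2 with siRNAc, and gives no ratio. The probe set that the platform annotation assigns to both CARD16 and CASP1 had 4284 with siRNA-Tbet and 5832 with siRNAc (log2 ratio -0.45), within the range of CASP1's own probe sets. Because the genes are so alike in sequence, the share of each in these signals is uncertain.

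CASP4, the lipopolysaccharide-binding caspase, was lower by less. Its brighter probe set had 2995 with siRNA-Tbet and 3659 with siRNAc (log2 ratio -0.29, 1.22-fold lower), where the technical spread was 0.17 and the percentile among genes of similar signal 7.43. The dimmer probe set had 751 with siRNA-Tbet and 822 with siRNAc (log2 ratio -0.13), which lies within the technical spread of 0.25 at that signal. CASP5, its close relative, had 133 with siRNA-Tbet and 160 with siRNAc, on either side of the floor. With the first value raised to the floor this is at least 1.09-fold lower, well within the spread of 0.40 for such dim probe sets.

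The 3 caspase genes and CARD16 are neighbours on chromosome 11. In the RefSeq order of GRCh38.p14 the protein-coding genes run CASP4, CASP5, CASP1, CARD16 and CARD18. All 4 of them that were measured were lower with siRNA-Tbet, where 53.6% of all measured genes were lower too. The log2 ratio of CASP5, -0.13, lies within its technical spread of 0.40. CARD18, which encodes another inhibitor of caspase-1, lay below the floor with 50.2 on the siRNA-Tbet and 52.5 on the siRNAc array. The 4 genes on either side of this stretch were then read by position, a choice made after the members' values were known. Of these 8, 4 were measured, and their log2 ratios were 0.10 for DCUN1D5, -0.0042 for MSANTD4, -0.03 for KBTBD3 and -0.02 for AASDHPPT, each within ±0.1. DYNC2H1, PDGFD, DDI1 and GRIA4 lay below the floor on both arrays. Related genes can share probes, so the cluster's members are not independent readings, and whether cross-hybridisation has a part in their common direction was not tested.

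**Figure D2:**
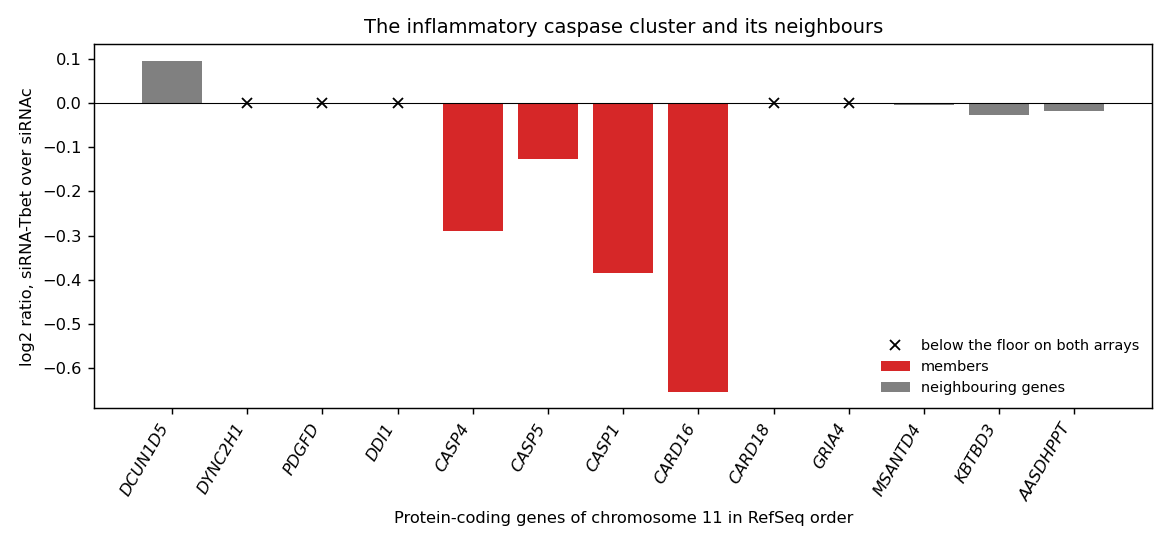
Floored log2 ratio of siRNA-Tbet over siRNAc (vertical axis) for 13 neighbouring protein-coding genes of chromosome 11 in RefSeq order, with the members in red, other genes in grey and a cross for a gene below the floor on both arrays. The 4 red bars run from -0.65 to -0.13, and the 4 measured neighbours lie between -0.03 and 0.10.

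Promoter windows from RefSeq (250 bases before and 50 after the gene's start) were held for 7 of the 10 genes, and in the cluster for CASP4 and CASP5. Both are shown because they belong to the group that was lower together, and they show how alike these genes are outside their coding parts. The CASP4 window lies on the minus strand at chr11:104968525-104968824 and that of CASP5 on the minus strand at chr11:105023119-105023418, both in GRCh38.p14. Capitals mark matches to the motifs named below.
CASP4: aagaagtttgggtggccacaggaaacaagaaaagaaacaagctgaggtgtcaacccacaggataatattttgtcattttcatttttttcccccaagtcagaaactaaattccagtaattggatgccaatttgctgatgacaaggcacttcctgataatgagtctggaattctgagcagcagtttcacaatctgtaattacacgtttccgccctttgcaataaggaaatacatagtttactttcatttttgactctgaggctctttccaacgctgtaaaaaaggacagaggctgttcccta
CASP5: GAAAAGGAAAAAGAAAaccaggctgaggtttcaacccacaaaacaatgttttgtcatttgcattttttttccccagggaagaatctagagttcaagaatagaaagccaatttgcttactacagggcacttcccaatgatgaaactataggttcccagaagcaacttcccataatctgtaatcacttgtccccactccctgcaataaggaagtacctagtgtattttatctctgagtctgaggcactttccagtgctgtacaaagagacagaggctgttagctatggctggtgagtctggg
In a global alignment the 2 windows shared 222 identical bases over 325 columns (68.3%), while the other 20 pairs of members' windows, 1 window a gene, shared 41.6% to 52.8%. Motifs were searched on both strands. The T-box motif GTGTGA, the core that T-bet and its relatives bind, was found in neither window, and in 1 of the 13 windows of the 7 genes, 1 of the 3 of NLRC4, where 12.0% of all 35116 RefSeq windows hold it. The motif of interferon regulatory factors, GAAA followed by any 2 bases and GAAA, is in 3.57% of all windows. It was found in 4 of the 13, the single windows of CASP5 and AIM2 and 2 of the 5 of CARD8. The 2 windows of CARD8 overlap and hold the same site, so they are not separate findings. Counted by gene, the motif was found in 3 of the 7, beside 1195 of all 27305 genes with a window. In CASP5 it occurs 2 times at the upstream edge, in overlapping copies that begin at positions -250 and -244 from the gene's start. A match here describes letters only, and its absence says only that those letters are not in the window.

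The sensors gave small differences at their brighter probe sets, with 1 larger reading for NLRP3. NLRP3, which responds to ion fluxes and membrane damage, had 641 with siRNA-Tbet and 597 with siRNAc at its brighter probe set (log2 ratio 0.10), within the technical spread of 0.30. Its second probe set had 354 with siRNA-Tbet and 221 with siRNAc (log2 ratio 0.68, 1.60-fold higher), which exceeds the spread of 0.40 at that signal. The third was at 15.0 with siRNA-Tbet and 2.39 with siRNAc, below the floor. The measured probe sets thus point the same way but differ in size, and with the median over them the log2 ratio of NLRP3 was 0.39.

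CARD8, a sensor held in check by the peptidases DPP8 and DPP9, had signals close to each other at all 3 measured probe sets. They were 3510, 2200 and 1178 with siRNA-Tbet, against 3737, 2077 and 1175 with siRNAc. The log2 ratios of -0.09, 0.08 and 0.0038 lie on both sides of 0 and within the technical spread, and average -0.0012 ± 0.09 (SD, n = 3 probe sets). A further probe set lay below the floor.

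AIM2, which detects DNA in the cytosol, and NLRC4, which responds to bacterial flagellin and secretion systems through NAIP, had signals near or below the floor. AIM2 had 148 with siRNA-Tbet, just above the floor, and 80.1 with siRNAc. As deposited this is a log2 ratio of 0.89, but with the floor it is 0.02, so its size rests on a signal below the floor. The 2 probe sets of NLRC4 had 4.67 and 49.4 with siRNA-Tbet, against 113 and 17.0 with siRNAc. They point in opposite directions below the floor and give no value.

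The adaptor and the pore protein, read by 1 probe set each, also stayed close to the control. PYCARD had 894 with siRNA-Tbet and 832 with siRNAc (log2 ratio 0.10, technical spread 0.25). GSDMD had 2453 with siRNA-Tbet and 2420 with siRNAc (log2 ratio 0.02, technical spread 0.18). Neither difference exceeds the technical spread.

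**Figure D3:**
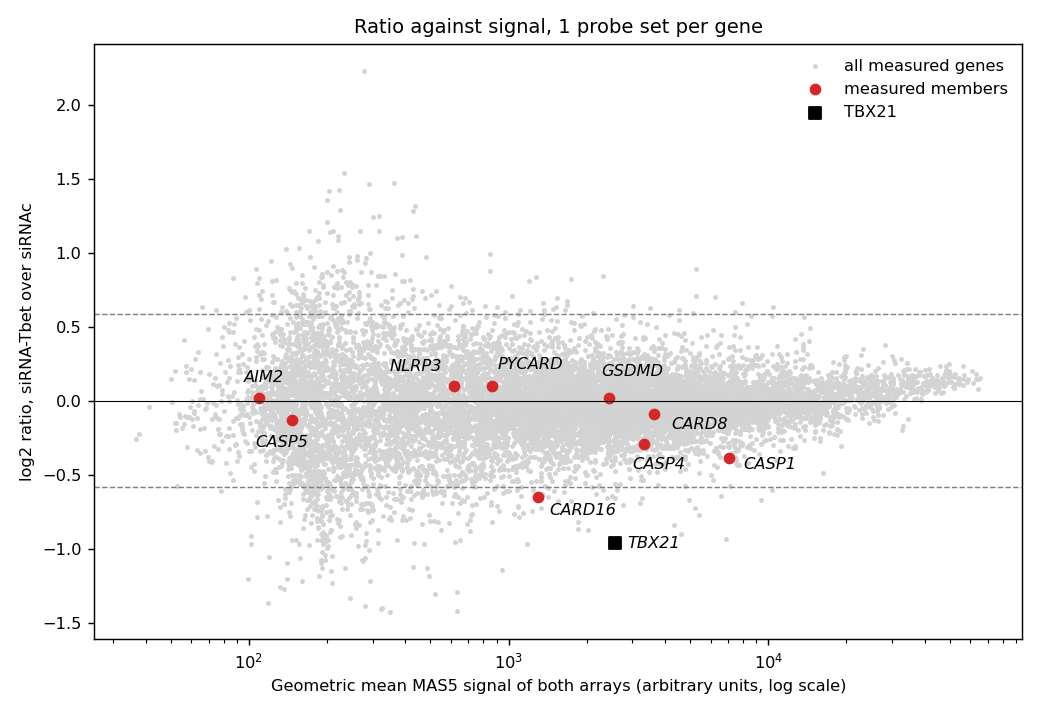
Floored log2 ratio of siRNA-Tbet over siRNAc (vertical axis) against the geometric mean MAS5 signal (horizontal axis, arbitrary units, log scale), with all 12126 measured genes in grey, the 9 measured members in red and TBX21 as a black square. Dashed lines mark 1.5-fold. CARD16 (-0.65) and CASP1 (-0.38) lie at the lower edge of the grey cloud at their signals and above TBX21 (-0.96), and the other 7 lie within it.

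The products and relatives of the pathway were read from lists chosen with results of these arrays known. Beside each list stand all measured genes, of which 53.6% were lower and 46.4% higher, with a median log2 ratio of -0.02. Of these, 2.88% were at least 1.5-fold lower and 1.96% at least 1.5-fold higher. Of 15 genes for substrates, antagonists and other pore proteins, 10 were measured, with 8 lower, 2 higher and a median log2 ratio of -0.13. IL18 itself had 849 with siRNA-Tbet and 979 with siRNAc (log2 ratio -0.20, within the technical spread of 0.25). IL1B, the other main substrate of caspase-1, was bright, with 11994 with siRNA-Tbet and 12985 with siRNAc. Its log2 ratio of -0.11 lies within the technical spread of 0.12. IL36G, an IL-1 family cytokine that is not matured by caspase-1, was the only gene of the list past 1.5-fold, at 201 with siRNA-Tbet and 530 with siRNAc (log2 ratio -1.40, 2.64-fold lower) on a single dim probe set. The count of this list at least 1.5-fold lower was 3 with the floor at the 25th percentile, 0 with it at the 75th and 2 with the median over probe sets.

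The antagonists gave mixed readings. IL1RN, the IL-1 receptor antagonist, was higher at all 4 of its measured probe sets, but by sizes from 0.05 to 0.66 on the log2 scale. Its brightest had 11747 with siRNA-Tbet and 11332 with siRNAc, and the probe set with the largest ratio had 2807 with siRNA-Tbet and 1781 with siRNAc. IL18BP, which neutralises IL-18, had 340 with siRNA-Tbet and 356 with siRNAc at its brightest probe set (log2 ratio -0.06). Its other measured probe sets lay on opposite sides of 0. One had 241 with siRNA-Tbet and 120 with siRNAc (log2 ratio 0.72 with the floor, 1.65-fold higher). The other had 153 with siRNA-Tbet and 162 with siRNAc (log2 ratio -0.08). Among pore and membrane rupture proteins, GSDMB had 434 with siRNA-Tbet and 553 with siRNAc (log2 ratio -0.35) and -0.92 at its other measured probe set, which read 152 with siRNA-Tbet and 289 with siRNAc. NINJ1 had 774 with siRNA-Tbet and 854 with siRNAc (log2 ratio -0.14, technical spread 0.25). PJVK had a log2 ratio of -0.17, where the technical spread was 0.40. GSDME, another pore protein, lay below the floor on both arrays.

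Of 13 other sensors, 9 were measured, with 7 lower and 2 higher, beside 53.6% lower of all measured genes. None was past 1.5-fold, and the median was -0.06. Counts past 1.5-fold became 4 lower and 1 higher under a floor at the 25th percentile, and 1 lower without a floor. NOD2, a sensor of bacterial cell wall fragments, had 25.4 with siRNA-Tbet, against 194 with siRNAc, at least 1.32-fold lower. NLRX1 had a log2 ratio of -0.22 and NLRP7 of 0.27. NLRP1, NAIP and NOD1 had -0.14, -0.06 and 0.11 at their chosen probe sets. The other measured probe set of NOD1 had -0.33, and those of NAIP had -0.33 and 0.11. IFI16, a DNA sensor of the AIM2 family, had 24987 with siRNA-Tbet and 25062 with siRNAc at its chosen probe set. Its other measured probe sets had log2 ratios of 0.03 and 0.23. MEFV and NLRP12 lay below the floor on both arrays.

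Of 19 regulators of assembly, 14 were measured, with 7 lower and 7 higher, beside 53.6% lower of all measured genes. None was past 1.5-fold, and the median was 0.01. NEK7, the kinase that binds NLRP3 and lets it assemble, had 12604 with siRNA-Tbet and 8460 with siRNAc on its single measured probe set (log2 ratio 0.58, 1.49-fold higher), just short of that bound. DPP9 reached 0.58 on its chosen probe set, at 277 with siRNA-Tbet and 185 with siRNAc, while its other 2 probe sets had -0.15 and -1.03. SUGT1, a co-chaperone of NLR proteins, was lower at all 5 probe sets, with -0.33 at the chosen one and -0.01 at the brightest. CARD6 had a log2 ratio of -0.30 and HSP90AB1 of 0.23.

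**Figure D4:**
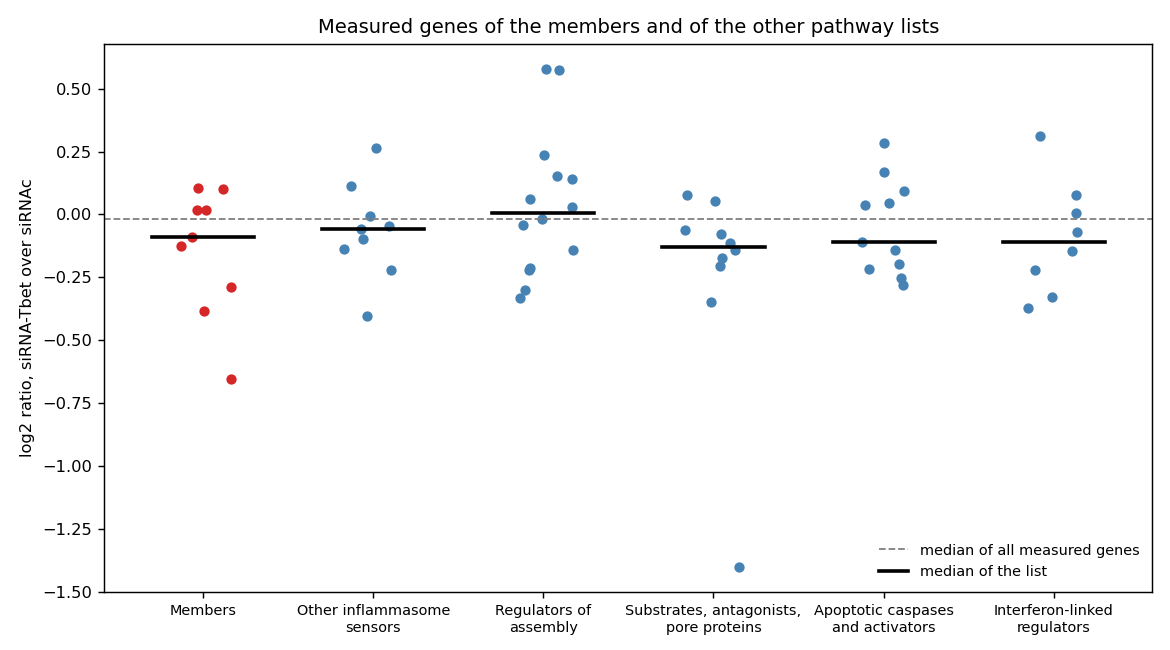
Floored log2 ratio of siRNA-Tbet over siRNAc (vertical axis) of each measured gene among the members (red, 9 genes) and in 5 lists of related genes (blue), with bars for the list medians and a dashed line for the median of all measured genes (-0.02). The list medians lie between -0.13 and 0.01, and IL36G is the point at -1.40.

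The apoptotic caspases, their activators and their inhibitors, read as 1 list, had a median of -0.11, with none past 1.5-fold. Among 11 measured of 15, 6 were lower and 5 higher, beside 53.6% lower of all measured genes. CASP8, the initiator of death receptor signalling, had 8611 with siRNA-Tbet and 8071 with siRNAc (log2 ratio 0.09). CASP9, the initiator of the mitochondrial route, had 617 with siRNA-Tbet and 507 with siRNAc (log2 ratio 0.28), and its partner APAF1 had -0.28. XIAP, an inhibitor of caspases, had -0.25 at its chosen probe set, while its 7 measured probe sets ran from -0.64 to 0.29. CASP6 had -0.22. CFLAR, a decoy of caspase-8, had -0.20 at its chosen probe set, while 9 of its 13 measured probe sets were higher. The difference between the inflammatory and the apoptotic caspases was not tested.

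Interferon-linked regulators of the inflammatory caspases had a median of -0.11, with none past 1.5-fold. Among 8 measured of 9, 5 were lower and 3 higher, beside 53.6% lower of all measured genes. IRF1 and IRF2, transcription factors known to drive genes of this pathway, had log2 ratios of -0.15 and -0.22 at their chosen probe sets. These had 8589 and 1595 with siRNA-Tbet, against 9508 and 1860 with siRNAc, and the technical spread there was 0.12 and 0.21. The other measured probe set of IRF1 went the other way, with 3142 with siRNA-Tbet and 2919 with siRNAc (log2 ratio 0.11). IRF8 had 713 with siRNA-Tbet and 924 with siRNAc (log2 ratio -0.37). The guanylate-binding proteins, which bring caspase-4 to bacterial surfaces, went both ways. GBP4 had a log2 ratio of -0.33, while GBP5 had 25352 with siRNA-Tbet and 20423 with siRNAc (log2 ratio 0.31), with 0.37 at its other probe set.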

How the data were processed

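The deposited table holds 1 linear signal intensity per probe set and array, made by the authors with MAS5, per the submitters' processing notes (no version stated there). MAS5 subtracts mismatch signal, so dim intensities are noisy, and its detection calls were not used here. Of 54675 probe sets, 41097 had 1 gene in the platform annotation, 1801 several and 11777 none. Symbols were updated by Entrez number through RefSeq (GRCh38.p14), where 41043 matched.

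From these values log2 ratios of siRNA-Tbet over siRNAc were computed (Python 3.11.15, pandas 2.3.3, statsmodels 0.14.6) with a common floor of 146, in place of a floor per array, which can turn a sign. The floor, 1 probe set a gene and the fold of 1.5 were set as described above, and the code was tested on simulated data. Windows were aligned with Biopython 1.88. 1 further motif is not reported here.

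The members and lists were chosen with earlier results of these data known. Genes named were TBX21, IFNG, all members, the 5 largest ratios of each list and a fixed set. With 1 array a group there was no test. Alternatives were median scaling, quantile normalization, a lowess trend removed (span 0.3), floors at the 25th and 75th percentile, per array or none, other choices of probe set, a fold of 2 and a smaller bound of 0.32 on the log2 scale.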

Additional observations from a re-analysis of the deposited data

How the results depend on the processing

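CASP1, CASP4, CASP5 and CARD16 were lower with siRNA-Tbet in every alternative that gave them a value, with log2 ratios from -0.38 to -0.33, -0.29 to -0.21, -0.26 to -0.11 and -0.65 to -0.63, and TBX21 from -0.96 to -0.94. CASP5, AIM2, NLRP3 and PYCARD gave no value with the floor at the 75th percentile, which left 5 of the 10 genes. The number of genes at least 1.5-fold lower, 1 in the main setting, was 0 at 2-fold and 2 at the smaller bound of 0.32 on the log2 scale. The number at least 1.5-fold higher, 0 in the main setting, was 1 with the floor at the 25th percentile and 1 with no floor, in both cases AIM2 (log2 ratio 0.89). The floor's own construction gives this, since the siRNAc signal of AIM2 lies below it. The median over the members ran from -0.29 (floor at the 75th percentile) to 0.0038 (median over probe sets), so its sign depends on the reading of CARD8. The medians of the assembly regulators (-0.03 to 0.03) and apoptotic caspases (-0.11 to 0.04) also took both signs, and counts in the lists of other sensors and of substrates moved with the floor as given above. The number of assembly regulators at least 1.5-fold higher, 0 in the main setting, was 2 with median scaling, namely NEK7 and DPP9. It was 1 with quantile normalization, 1 with the lowess trend removed and 1 with the floor at the 25th percentile. No paired analysis was possible because each group holds 1 array. Signals below the floor limit AIM2, CASP5 and NLRC4.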
